A study of Mus musculus with 8 samples.

Results

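The enzymes that make bile acids from cholesterol were followed in livers that lack both liver X receptors (LXRs), through the transcripts of 10 genes chosen by name: Cyp7a1, Cyp8b1, Cyp27a1, Cyp7b1, Cyp39a1, Hsd3b7, Akr1d1, Amacr, Slc27a5 and Baat. All 10 were present among the 25010 genes of the deposited RNA-Seq table, and all 10 passed the filter on low values that left 15578 genes for testing. RNA-Seq was available for the left liver lobe of 2 wild-type (WT) mice and 2 LXRDKO mice, 1 library per mouse. LXRDKO mice are LXRa/b double knockout animals, in which the genes of LXRα (Nr1h3) and LXRβ (Nr1h2) are disrupted in the whole body rather than in hepatocytes alone. Both genotypes were on a C57BL/6 background, were killed at 8 wk of age after a fast of 4 to 6 h, and neither group received an LXR agonist. The mice ate standard chow, per the methods of the study.

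Bile acid synthesis runs along a pair of routes in hepatocytes. In the classical route CYP7A1 places the first hydroxyl group on cholesterol and sets the pace of the whole pathway, whereas in the alternative route the side chain is oxidized first, by CYP27A1 in mitochondria, and CYP7B1 then hydroxylates the resulting oxysterol. CYP8B1 determines how much of the product becomes cholic acid, HSD3B7 and AKR1D1 remodel the steroid nucleus, AMACR prepares the side chain for shortening in peroxisomes, and SLC27A5 and BAAT couple the product to coenzyme A and then to taurine or glycine. LXRs are activated by oxysterols, and in rodents Cyp7a1 is a known LXR target.

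The libraries held between 55772659 and 72842744 reads counted on genes. The values below are normalized counts, that is, reads divided by 1 size factor per library. The 10 genes together took 0.324% and 0.261% of the reads for WT, against 0.354% and 0.375% for LXRDKO. As a check of the labels, Nr1h3 measured 5785 and 5322 normalized counts for WT, against 1712 and 1826 for LXRDKO, and Nr1h2 gave 2987 and 3110 (WT) and 925 and 1003 (LXRDKO). The 8 hepatocyte markers examined, Alb and Apoa1 among them, summed to between 6847752 and 7834652 normalized counts in WT and between 6610996 and 7126903 in LXRDKO. Alb made up most of each sum, and each of the 8 was at 21819 or more in every liver. In bulk liver, fewer cells of a type and less RNA per cell cannot be told apart. WT replicate 2 stood apart from the other livers in Cyp7b1 and in some sex-biased genes, and results that rest on it are given with and without it.

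Per length of merged exon, the 10 transcripts differed widely in level. In WT livers the order of mean levels ran from Slc27a5, with 24120 normalized counts per kb, through Cyp27a1 (16703), Cyp8b1 (11734), Cyp7b1 (6522), Baat (6212), Cyp7a1 (4119), Amacr (3569), Akr1d1 (3213) and Hsd3b7 (918) down to Cyp39a1 (423). The ranges of the 2 WT livers overlapped between Cyp8b1 and Cyp7b1 and between Cyp7b1 and Baat, and did not overlap between the other neighbours in this order. The place of Cyp7b1 rests on WT replicate 1, where it was at 10676 per kb and above Baat, since in WT replicate 2 it was at 2368, below Baat, Cyp7a1, Amacr and Akr1d1. In the means of the LXRDKO livers Cyp8b1, with 20208 per kb, stood above Cyp27a1, with 16474, and Akr1d1 stood above Amacr, whereas the other 6 genes had the same rank as in the WT means.

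**Figure D1:**
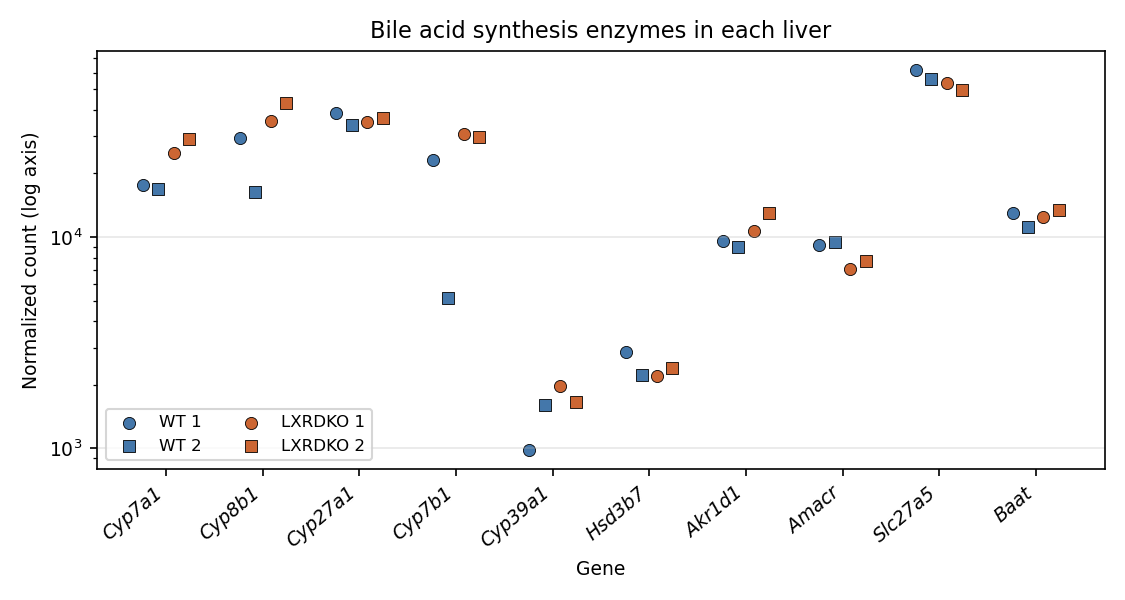
Normalized count (vertical, log axis) of each bile acid synthesis gene (horizontal) in the 2 WT livers (blue) and the 2 LXRDKO livers (orange), with circles for replicate 1 and squares for replicate 2. Cyp7a1 and Cyp8b1 lie higher in both LXRDKO livers, and the point that departs most from its group is Cyp7b1 in WT replicate 2, at 5128.

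For 5 of the 10 genes, Cyp7a1, Cyp8b1, Cyp7b1, Cyp39a1 and Akr1d1, the values of the LXRDKO mice exceeded every WT value, against 21.7% of all genes tested. They were below every WT value for 2 genes, Amacr and Slc27a5, against 23% of all genes tested. Cyp27a1, Hsd3b7 and Baat overlapped between genotypes. The median log2 fold change of the 10 genes was 0.23, beside −0.0046 over all genes tested. Genotypes were compared in limma, fitted across all 15578 genes to log2(normalized count + 1), and fold changes are on that scale. None of the 10 genes had an adjusted P value under 0.05 in limma, which called 0.135% of all genes higher and 0.186% lower in LXRDKO. Without adjustment 4 of the 10 passed 0.05, Cyp7a1, Cyp8b1, Akr1d1 and Amacr, against 13.3% of all genes. DESeq2, the tool named in the methods of the study, called Cyp7a1 higher when run on the recovered reads and called no other member, where it called 1.56% of genes higher and 2.03% lower. The quasi-likelihood test of edgeR called none. The smallest two-sided P value that exact permutation of 2 and 2 livers allows for any one gene is 0.333.

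**Figure D2:**
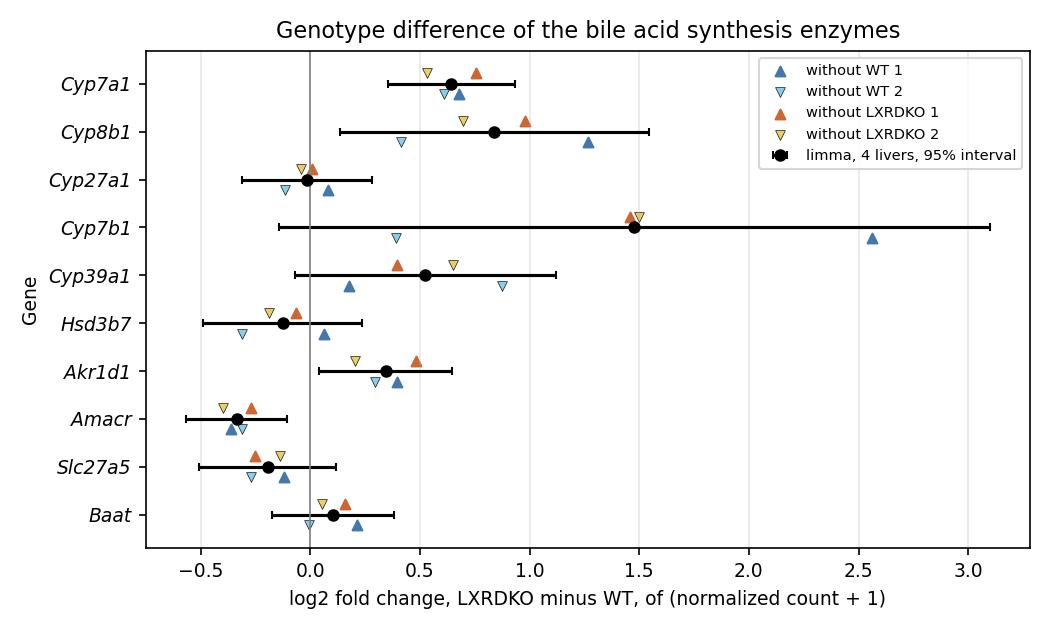
Log2 fold change, LXRDKO minus WT, of each bile acid synthesis gene with its 95% interval from limma (black, 4 livers), and the estimate when 1 liver is left out (coloured triangles). The interval of Cyp7a1 lies above 0 and its estimates stay between 0.53 and 0.76, whereas leaving out WT replicate 2 brings Cyp7b1 to 0.39 and leaving out WT replicate 1 brings it to 2.56.

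Cyp7a1, the gene of the rate-limiting cholesterol hydroxylase of the classical route, lies on chromosome 4 from 6265612 to 6275633 on the minus strand (GRCm38, the same assembly as mm10). It reached 17587 and 16798 normalized counts among WT and 24854 and 29037 among LXRDKO mice. The livers of each genotype were close to each other and the genotypes did not overlap. The difference was 1.56-fold (95% interval 1.28 to 1.91), or 0.64 on the log2 scale (SE 0.12). Limma gave an adjusted P value of 0.127, edgeR 0.133 and DESeq2 0.000494. Since the genotypes did not overlap, the estimate had to stay positive whichever liver was left out, and it ran from 0.53 to 0.76.

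Cyp8b1 encodes the hydroxylase that directs synthesis toward cholic acid and is a gene of a single exon on chromosome 9 from 121914356 to 121916305. It gave 29444 and 16318 normalized counts (WT) and 35583 and 43226 (LXRDKO). Both LXRDKO livers were above both WT livers, but the WT livers differed from each other by 0.85 on the log2 scale. The difference between genotypes was 1.79-fold (95% interval 1.10 to 2.92), or 0.84 on the log2 scale (SE 0.28). Limma gave an adjusted P value of 0.309 and DESeq2 0.0581. Without WT replicate 2 the log2 fold change was 0.41. Without WT replicate 1 it was 1.27, and the adjusted limma P value of 0.0162 then rests on a lone WT liver assumed to vary like the others.

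Promoter sequences from RefSeq on GRCm38.p6 were found for 4 of the 10 genes, Cyp8b1, Cyp27a1, Akr1d1 and Hsd3b7, and not for Cyp7a1, Cyp7b1, Cyp39a1, Amacr, Slc27a5 and Baat. The 250 bases before the start of Cyp8b1 and of Cyp27a1 are shown because the transcript of the former was higher in both LXRDKO livers and that of the latter was not, and capitals mark matches to the motifs searched. Cyp8b1 lies on the minus strand (chr9:121916306-121916555) and Cyp27a1 on the plus strand (chr1:74713285-74713534). Starts here are those of the promoter sequences and can differ from the gene positions given in the text. For Cyp27a1 the window ends short of the gene start given below, 74713574.
Cyp8b1: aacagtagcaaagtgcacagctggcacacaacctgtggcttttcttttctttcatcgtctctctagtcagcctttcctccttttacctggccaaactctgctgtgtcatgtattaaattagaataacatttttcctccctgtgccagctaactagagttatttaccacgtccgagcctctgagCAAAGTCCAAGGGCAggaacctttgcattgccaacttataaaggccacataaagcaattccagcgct
Cyp27a1: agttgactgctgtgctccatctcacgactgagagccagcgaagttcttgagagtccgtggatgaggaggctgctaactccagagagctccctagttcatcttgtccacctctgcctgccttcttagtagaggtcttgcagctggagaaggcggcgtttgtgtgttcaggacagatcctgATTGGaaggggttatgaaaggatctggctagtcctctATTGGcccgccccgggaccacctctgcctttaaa
The motifs, searched on both strands, were CAAAGTCCA, bound by HNF4α, CAAGGNCA, bound by the nuclear receptor LRH-1, a direct repeat of the nuclear receptor half-site with a gap as bound by LXR (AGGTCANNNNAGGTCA), and the CCAAT box of NF-Y. Cyp8b1 held the first from 67 to 59 bases and the second from 60 to 53 bases before the start, sharing 2 bases. Cyp27a1 held a pair of CCAAT boxes in antisense orientation. Of the 32851 promoter windows of this length in the table, 0.384% held the first motif, 5.53% the second, 0.0152% the direct repeat and 33.8% a CCAAT box. None of these motifs was found in the windows of Akr1d1 and Hsd3b7. Only exact letters within 250 bases were searched, and the study states that many important LXR sites depart from the perfect repeat. The lack of a match to the direct repeat therefore does not show the lack of an LXR site. A match is a description of the sequence and says nothing of binding in these livers.

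Cyp7b1 encodes the oxysterol hydroxylase of the alternative route and lies on chromosome 3 from 18071950 to 18243338. It measured 23124 and 5128 normalized counts for WT, against 30756 and 29891 for LXRDKO. The LXRDKO livers agreed closely, and WT replicate 2 was far below the other 3 livers. The log2 difference between the WT livers, −2.17, ranked 113 by size among the 15578 genes tested. The log2 fold change between genotypes was 1.48 (95% interval −0.14 to 3.10, adjusted P = 0.409 from limma and 0.902 from DESeq2). Leaving out WT replicate 2 gave 0.39, and leaving out WT replicate 1 gave 2.56 (adjusted P = 0.00123, limma, with the lone WT liver assumed to vary like the others). Cyp7b1 is expressed more in male than in female mouse liver.

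The sex of the mice is not given in the sources used here. The Y-linked genes Ddx3y, Uty, Kdm5d and Eif2s3y had between 867 and 4916 normalized counts in every liver and Xist between 5.7 and 10.4. In WT replicate 2 these Y-linked genes were at 4651, 1005, 1440 and 2960, and Xist was at 8.5. Y-linked transcripts were thus present in every liver, WT replicate 2 included. Of 8 genes known to be male-biased in mouse liver, all 8 were lower in WT replicate 2 than in WT replicate 1. Their median log2 difference was −0.53, and the smallest was −0.016. The median was −0.0027 over all genes tested, −0.18 over the 10 bile acid synthesis genes and −0.19 over their regulators. A smaller drop was thus also seen in lists not chosen for sex bias, while the median of the Kupffer cell markers was 0.15. The 4 tested of the female-biased genes were all higher in WT replicate 2, with a median of 1.67. Cyp2a4, a female-biased steroid hydroxylase gene, reached 53.6 and 3470 normalized counts among WT and 34.2 and 83.6 among LXRDKO mice. Cyp2d9, a male-biased one, gave 56622 and 24036 (WT) and 47569 and 62396 (LXRDKO). Not every such gene singled out WT replicate 2, since the female-biased Cyp2b9 was at 43.3 and 77.2 (WT) and 588 and 67.5 (LXRDKO). Among the male-biased genes, Cyp4a12a, Cyp4a12b, C8a and Hsd3b5 were lower in an LXRDKO liver than in WT replicate 2. Elovl3, Mup20 and Slco1a1, like Cyp2d9, were lowest in WT replicate 2. WT replicate 1 was the highest liver for every male-biased gene except Cyp2d9 and Mup20. The liver with the least Cyp7b1 was also the one with the least Cyp2d9 and the most Cyp2a4, and the part of this pattern in the difference of Cyp7b1 between genotypes was not tested. Limma called none of the 12 tested genes of these lists, where it called 0.135% of all genes higher and 0.186% lower. DESeq2 called Cyp4a12a and Cyp4a12b lower (2.03% of all genes), with log2 fold changes of −0.75 and −1.05 in limma.

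**Figure D3:**
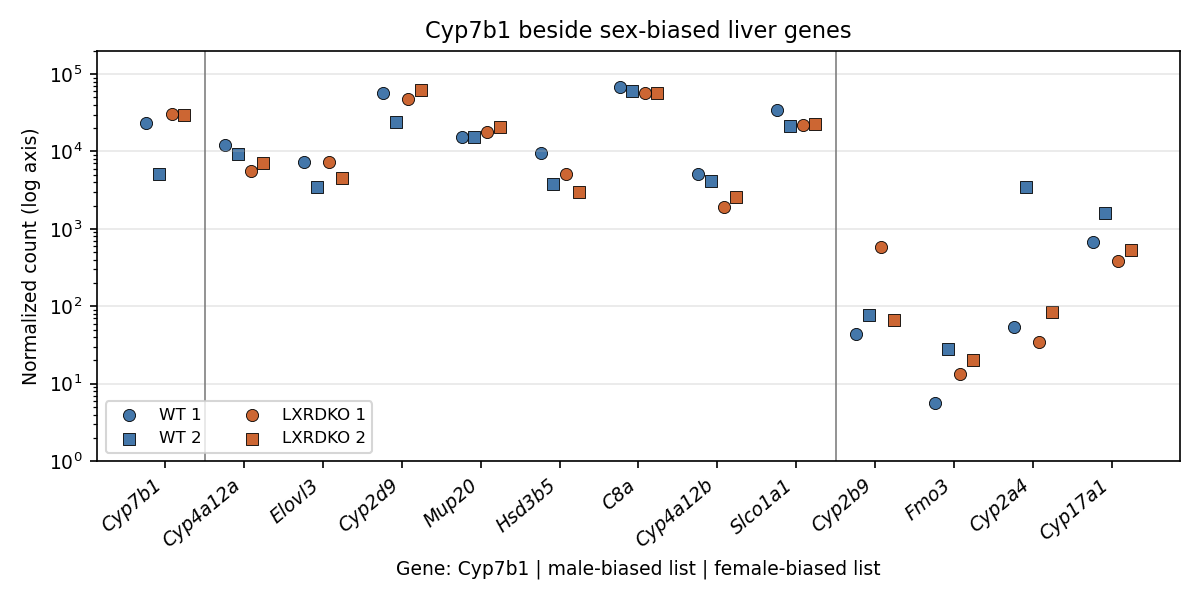
Normalized count (vertical, log axis) of Cyp7b1 and of the 8 male-biased and 4 tested female-biased genes (horizontal) in the 2 WT livers (blue) and the 2 LXRDKO livers (orange), with circles for replicate 1 and squares for replicate 2. In WT replicate 2 Cyp7b1 is at 5128 and Cyp2d9 at 24036, the lowest of the 4 livers, and Cyp2a4 is at 3470, the highest. Cyp4a12a, Cyp4a12b, C8a and Hsd3b5 are lower in an LXRDKO liver than in WT replicate 2.

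Cyp39a1, on chromosome 17 from 43667425 to 43751431, encodes a hydroxylase of oxysterols formed mainly in brain and had the lowest level of the set. It gave 985 and 1597 normalized counts (WT) and 1973 and 1653 (LXRDKO). The groups did not overlap, but the nearest livers of the 2 genotypes differed by less than the WT livers did. The genotypes differed by 0.53 on the log2 scale (SE 0.24, adjusted P = 0.422 in limma). Leaving out WT replicate 1 gave 0.18, and leaving out WT replicate 2 gave 0.87.

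CYP7A1, CYP7B1 and CYP39A1 carry out the same hydroxylation on cholesterol or on oxysterols, so their transcripts were also compared per length within each liver. The sum of the 3 was 15212 and 6915 normalized counts per kb for WT, against 20801 and 21298 for LXRDKO. Cyp7a1 made up 27.7% and 58.2% of that sum in WT and 28.6% and 32.7% in LXRDKO. Cyp7b1 made up 70.2% and 34.2% in WT and 68.3% and 64.8% in LXRDKO. The composition in WT replicate 1 thus resembled that of both LXRDKO livers, and WT replicate 2 was the liver in which Cyp7a1 exceeded Cyp7b1 per length.

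**Figure D4:**
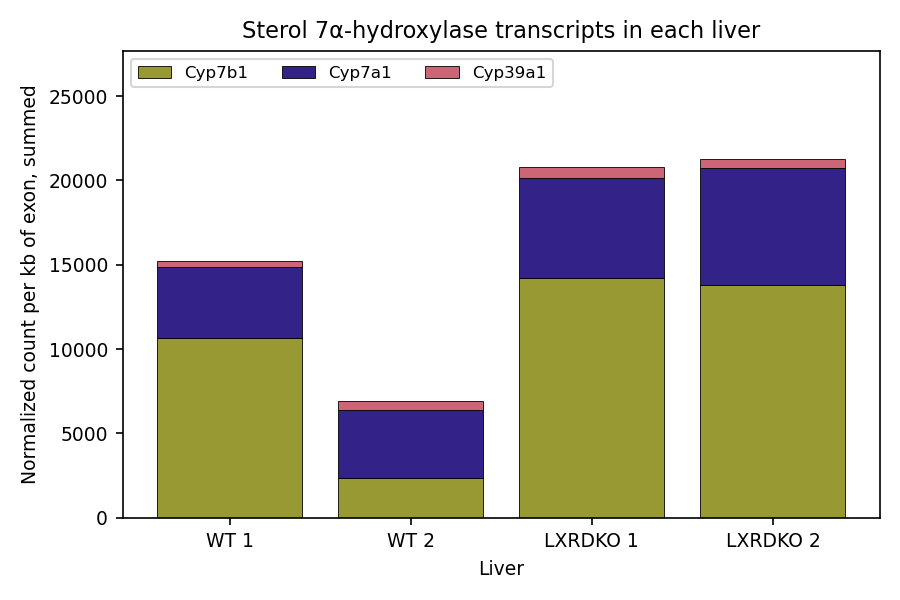
Normalized count per kb of merged exon (vertical, from 0) of Cyp7b1, Cyp7a1 and Cyp39a1, stacked for each of the 4 livers (horizontal). The sums are 15212 and 6915 in WT and 20801 and 21298 in LXRDKO, and Cyp7b1 is the largest part except in WT replicate 2.

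Cyp27a1, on chromosome 1 from 74713574 to 74737892, encodes the mitochondrial side-chain hydroxylase that also makes an oxysterol ligand of LXR. It measured 38798 and 33792 normalized counts for WT, against 35124 and 36472 for LXRDKO, both LXRDKO values lying between the WT values. The fold change was 0.988 (95% interval 0.805 to 1.21, adjusted P = 0.971, limma), so a difference of the size seen for Cyp7a1 lay outside the interval. Relative to Cyp7a1 within the same liver, Cyp27a1 was higher by 1.14 and 1.01 on the log2 scale in WT and by 0.50 and 0.33 in LXRDKO. This within-liver difference, which does not depend on the size factors, was −0.66 for LXRDKO minus WT (two-sided exact permutation P = 0.333, the smallest that 2 livers against 2 allow; adjusted P = 1 over 4 such contrasts).

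The other 3 within-liver contrasts overlapped between genotypes. Cyp7a1 minus Cyp7b1 was −0.39 and 1.71 in WT and −0.31 and −0.04 in LXRDKO. Cyp8b1 minus Cyp7b1 was 0.35 and 1.67 in WT and 0.21 and 0.53 in LXRDKO. Cyp8b1 minus Cyp7a1 was 0.74 and −0.04 in WT and 0.52 and 0.57 in LXRDKO, both LXRDKO values lying between the WT values. The mean difference between genotypes was −0.83, −0.64 and 0.20 for these contrasts and had the opposite sign in each once WT replicate 2 was left out (exact permutation P = 1, 0.667 and 1, two-sided; adjusted P = 1 for each).

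Among the enzymes of the steroid nucleus, Hsd3b7 encodes the sterol dehydrogenase that oxidizes the intermediates of both routes, and it lies on chromosome 7 from 127800604 to 127803802. It reached 2871 and 2215 normalized counts among WT and 2213 and 2414 among LXRDKO mice. The genotypes overlapped and the fold change was 0.916 (95% interval 0.713 to 1.18, adjusted P = 0.781, limma). In GENCODE M21 the gene lies wholly within another protein-coding gene on the same strand, Gm49388, and 9430064I24Rik overlaps it on the other strand. Its reads may therefore have been divided or shared. Gm49388 is not among the genes with deposited values, and 9430064I24Rik gave 457 and 346 normalized counts (WT) and 416 and 402 (LXRDKO). Akr1d1 encodes the reductase that bends the steroid nucleus and lies on chromosome 6 from 37530173 to 37568815. It gave 9614 and 8978 normalized counts (WT) and 10708 and 13000 (LXRDKO), higher in both LXRDKO livers. The difference was 1.27-fold (95% interval 1.03 to 1.57, adjusted P = 0.326 from limma and 0.286 from DESeq2). Within Akr1d1 lies the pseudogene Gm7463 on the same strand, which measured 233 and 230 normalized counts for WT, against 398 and 435 for LXRDKO.

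Amacr, the racemase gene of the peroxisomal branch, lies on chromosome 15 from 10981756 to 10996626. It reached 9151 and 9451 normalized counts among WT and 7050 and 7703 among LXRDKO mice, lower in both LXRDKO livers by more than the livers of either genotype differed. The fold change was 0.792 (95% interval 0.676 to 0.929), or −0.34 on the log2 scale (SE 0.09). Limma gave an adjusted P value of 0.235 and DESeq2 0.187. Slc27a5, the gene of the bile acid coenzyme A ligase, lies on chromosome 7 from 12988346 to 12998192. It had the most reads of the set, with 61879 and 55728 normalized counts (WT) and 53361 and 49365 (LXRDKO). The groups did not overlap, but the gap between them was smaller than the difference between the WT livers, and the fold change was 0.874 (95% interval 0.703 to 1.09, adjusted P = 0.591, limma). Baat, which encodes the enzyme that joins bile acids to amino acids, lies on chromosome 4 from 49489422 to 49506557. It gave 12974 and 11140 normalized counts (WT) and 12481 and 13407 (LXRDKO), with a fold change of 1.08 (95% interval 0.887 to 1.31, adjusted P = 0.757, limma).

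Other steps of bile acid synthesis were read from a list of 11 genes, all tested. Limma called none of them, 2 had an unadjusted P value under 0.05 (13.3% of all genes), DESeq2 called 2 lower (2.03% of all genes) and the median log2 fold change was −0.22. The genotypes did not overlap for 8 of the 11, with LXRDKO lower for 6 (23% of all genes) and higher for 2 (21.7%). Cyp2c70 encodes the hydroxylase that turns chenodeoxycholic acid into the muricholic acids of rodents. It measured 28000 and 24883 normalized counts for WT, against 14813 and 10583 for LXRDKO. Its fold change was 0.474 (95% interval 0.350 to 0.644, adjusted P = 0.108 from limma and 4.76e-06 from DESeq2), in size the largest of this list. Abcd3, the gene of a peroxisomal importer of bile acid intermediates, gave 46707 and 55660 (WT) and 27924 and 38477 (LXRDKO), with a fold change of 0.643 (95% interval 0.464 to 0.890, adjusted P = 0.261 from limma and 0.0363 from DESeq2). The remaining genes, which include the peroxisomal enzymes Acox2, Hsd17b4, Scp2 and Acot8, had log2 fold changes from −0.39 to 0.25.

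Of 19 genes of regulators of bile acid synthesis, all tested, limma called none, 6 had an unadjusted P value under 0.05 (13.3% of all genes), and DESeq2 called 1 higher and 2 lower (1.56% and 2.03% of all genes). Nr0b2 encodes SHP, the corepressor through which the bile acid receptor FXR lowers transcription of Cyp7a1 and Cyp8b1. It reached 1055 and 700 normalized counts among WT and 285 and 402 among LXRDKO mice, lower in both LXRDKO livers. The fold change of Nr0b2 was 0.394 (95% interval 0.252 to 0.617, adjusted P = 0.134 from limma and 8.495e-05 from DESeq2), the largest in size on the list. Nr1h4, the gene of FXR itself, gave 12294 and 11718 (WT) and 11986 and 12555 (LXRDKO), a fold change of 1.02 (95% interval 0.875 to 1.19). Hnf4a, which encodes an activator of both hydroxylase genes, gave 44148 and 38999 (WT) and 70769 and 56007 (LXRDKO), a fold change of 1.52 (95% interval 1.15 to 2.00, adjusted P = 0.224 from limma and 0.0115 from DESeq2). Ppara, whose product raises Cyp8b1 in mice, was called lower by DESeq2, with a log2 fold change of −0.58 in limma. Nr5a2, Fgfr4 and Klb, which encode LRH-1 and the hepatic receptor complex for the gut hormone FGF15, overlapped between genotypes with log2 fold changes from −0.13 to 0.10. Whether any of these regulators had a part in the levels of the enzymes was not tested.

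**Figure D5:**
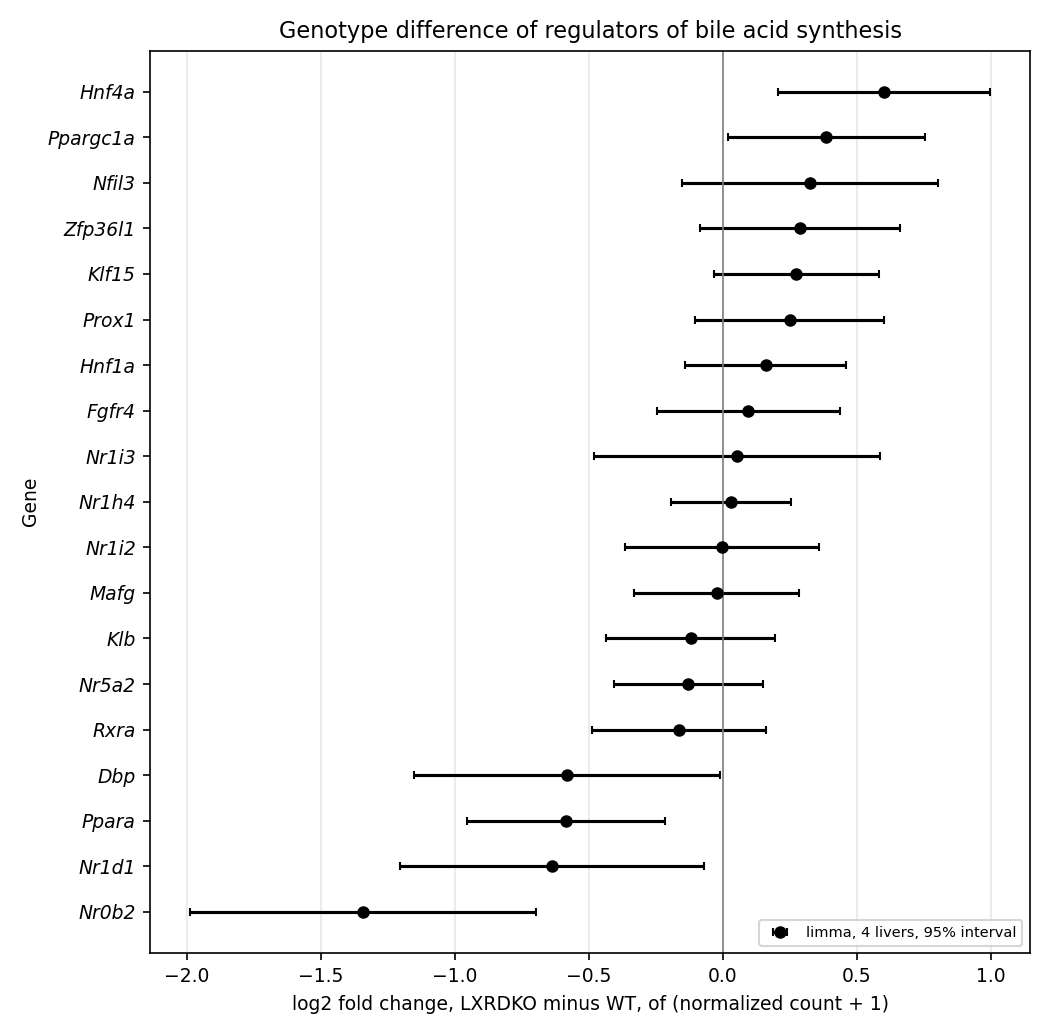
Log2 fold change, LXRDKO minus WT, of 19 regulators of bile acid synthesis (vertical, ordered by estimate) with 95% intervals from limma over 4 livers. Hnf4a lies at 0.60 at the top and Nr0b2 at −1.34 at the bottom, and the intervals of Nr1h4, Nr5a2, Fgfr4 and Klb include 0.

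Transcription of Cyp7a1 follows the day, so clock genes were read beside it. Of 14 clock genes 13 were tested, and neither limma nor DESeq2 called any, with 4 at an unadjusted P value under 0.05 (13.3% of all genes) and log2 fold changes from −0.64 for Nr1d1 to 0.78 for Arntl. Nr1d1 and Dbp are among these 4 and were also counted among the 6 regulators. Dbp, an activator of Cyp7a1, gave 13348 and 14593 normalized counts (WT) and 11917 and 7296 (LXRDKO). The time of day at which the mice were killed is not given in the sources used here, and the part of the clock in the Cyp7a1 values was not tested.

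Markers of other liver cells also differed between genotypes. The 8 Kupffer cell markers summed to between 11122 and 12009 normalized counts in WT and between 2560 and 4767 in LXRDKO. Timd4 was at 0 in LXRDKO replicate 2. Limma called 4 of them lower, Cd5l, Cd163, Clec4f and Marco (0.186% of all genes). DESeq2 called these and Vsig4 and Timd4 lower (2.03% of all genes). Csf1r, a macrophage receptor gene on the same list, overlapped between genotypes at 2291 and 2578 (WT) and 3477 and 1826 (LXRDKO) and made up most of each LXRDKO sum. The 6 cholangiocyte markers were all higher in both LXRDKO livers, against 21.7% of all genes, and summed to between 2084 and 3599 in WT and between 4572 and 5426 in LXRDKO, with Epcam called by DESeq2 (log2 fold change 1.25, limma). Spp1 made up most of each sum, at 1433 and 2907 (WT) and 3658 and 4300 (LXRDKO). Endothelial markers summed to between 9253 and 10344 in WT and between 6005 and 7849 in LXRDKO, and Kdr among them was called lower by limma and DESeq2 (log2 fold change −1.17). Of the 6 endothelial markers 4 were lower without overlap (23% of all genes), and Stab2 and Lyve1 overlapped, with log2 fold changes of −0.37 and 0.23. Stellate cell markers summed to between 11028 and 11880 in WT and between 15328 and 17201 in LXRDKO. Dcn was the largest part of each sum, at 5219 and 6248 (WT) and 8316 and 9892 (LXRDKO). DESeq2 called Reln and Dcn among these markers higher (1.56% of all genes). Of the 6 stellate markers 4 were higher without overlap (21.7% of all genes), and Lrat and Rgs5 overlapped, with log2 fold changes of 0.32 and −0.11. Of the 8 hepatocyte markers, Tat was called by DESeq2 (log2 fold change 0.65, limma), and the median log2 fold change of the 8 was −0.01. Without overlap between genotypes, 2 of the 8 were higher in LXRDKO (21.7% of all genes) and 1 was lower (23%). The part of these shifts in the levels of the bile acid synthesis genes was not tested.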

How the data were processed

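Reads were produced, aligned to mm10 with STAR 2.6.0c and normalized with DESeq2 by the authors, and the counting tool and annotation release are not given in the sources used here. The deposited values are a signal, reads per gene divided by 1 size factor per library by the authors, with 1 column per liver. All values (100%) were whole multiples of 1 read within 0.1 read, so reads were recovered. ATAC-Seq was not analysed here.

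The main test was limma 3.58.1 in R 4.3.3 with a variance trend, on log2(normalized count + 1), over genes whose normalized counts averaged 10 or more, with Benjamini-Hochberg adjustment at 0.05. Fold changes are LXRDKO over WT and understate those of low genes. DESeq2 1.42.0 and edgeR 4.0.16 took the recovered reads as input. The main limma fit, DESeq2 and edgeR were tested on simulated data, and the other alternative fits were not. GENCODE M21 (GRCm38) supplied positions and merged exon lengths and held 24987 of the 25010 identifiers. Single contrasts used exact permutation tests.

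Each library is 1 liver, and P values rest only on the spread between these livers. Limma, DESeq2 and edgeR estimate that spread for each gene with help from the other genes. The labels give no pairing of mice by replicate number, and none was assumed in the main test. The correlation of replicate deviations between genotypes was 0.00312, a single value over all genes that cannot show whether mice were paired. Named are all 10 enzymes, the deleted receptors, and from each other list the called genes and the largest change. Nr5a2, Fgfr4, Klb, Nr1h4, Dbp, Cyp2d9, Cyp2b9, Por, Fdx1, Ch25h, Csf1r, Spp1, Stab2, Lyve1, Lrat, Rgs5, the sex-linked genes and the overlapping genes were added after their values were seen. So were Nr1d1, Elovl3, Mup20, Hsd3b5, C8a, Slco1a1 and the share of Alb in the hepatocyte sum. Apoa1, Acox2, Hsd17b4, Scp2 and Acot8 are named only as examples of list members. The enzymes and lists were chosen with earlier results of these data known. Alternatives are given in the closing section. Intervals from limma reflect 4 livers only.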

Additional observations from a re-analysis of the deposited data

How the results depend on the processing

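No member was called lower under any alternative run, and the median log2 fold change of the members stayed between 0.13 and 0.28. Members were called higher as follows: 1 by DESeq2 (Cyp7a1), 0 to 2 with single livers left out (2 without WT replicate 1, Cyp8b1 and Cyp7b1), and 0 under every other alternative, that is, another pseudocount (0.5 or 8), no filter, a minimum mean of 50, upper-quartile or library-total scaling, no variance trend, robust moderation, edgeR, and thresholds of 0.01 and 0.10. A replicate block also left 0 members called (adjusted P = 0.138 for Cyp7a1), while calls over all genes went from 50 to 90. Those calls were 567 with DESeq2, 49 with edgeR, 25 with a minimum mean of 50, 1 without the variance trend (1873 at an unadjusted P value under 0.05), 262 without WT replicate 1, 157 without WT replicate 2, 2 without LXRDKO replicate 1 and 8 without LXRDKO replicate 2, where the lone liver of an arm is assumed to vary like the others. Signs turned only for genes near 0, Cyp27a1, Hsd3b7 and Baat. Cyp27a1 was 0.0378 with scaling to the library total. Over the livers left out Cyp27a1 ran from −0.12 to 0.0829, Hsd3b7 from −0.31 to 0.0610 and Baat from −0.0043 to 0.22. Leaving out a liver could turn the sign of these genes only, since the genotypes did not overlap for the other members. Of the within-liver contrasts, Cyp7a1 minus Cyp7b1 ran from −1.89 to 0.22, Cyp8b1 minus Cyp7b1 from −1.30 to 0.0227 and Cyp8b1 minus Cyp7a1 from −0.20 to 0.59, each turning without WT replicate 2. The causes were not tested. Every member had at least 985 normalized counts in each liver, and the 2 livers per genotype limit the precision.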

Other observations

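Cytochromes P450 of bile acid synthesis depend on electron donors, and oxysterol enzymes feed the alternative route. Of 9 genes listed for these steps and for sterol delivery, 8 were in the table and 7 were tested. Limma called none, 2 had an unadjusted P value under 0.05 (13.3% of all genes) and DESeq2 called 1 lower (2.03% of all genes). Por, the reductase gene that serves microsomal P450s such as CYP7A1, CYP7B1 and CYP8B1, measured 54673 and 73893 normalized counts for WT, against 87824 and 102130 for LXRDKO, a fold change of 1.49 (95% interval 1.07 to 2.07, adjusted P = 0.304 from limma and 0.0594 from DESeq2). Fdx1, which serves the mitochondrial CYP27A1, gave 6041 and 5635 (WT) and 5763 and 5878 (LXRDKO), a fold change of 0.997 (95% interval 0.858 to 1.16), and was chosen after its values were seen. Stard4, the gene of a sterol carrier, gave 10382 and 10569 (WT) and 5701 and 7099 (LXRDKO), a fold change of 0.607 (95% interval 0.489 to 0.754, adjusted P = 0.120 from limma and 0.000599 from DESeq2), in size the largest of the list. Ch25h, which makes an oxysterol, was at or below 13.6 normalized counts in every liver.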
